A study of Mus musculus with 2 samples.

Results

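The MHC class II pathway was followed through 10 genes, H2-Aa, H2-Ab1, H2-Eb1, Cd74, Ciita, H2-DMa, H2-DMb1, H2-DMb2, H2-Oa, and H2-Ob, which were taken by name. All 10 were listed in both count tables, among 22780 genes with a UMI in the control library and 21523 in the ISO library, or 23946 genes in all. The cells were CD45+ leukocytes sorted from the hearts of female wild-type C57BL6 mice. Hearts were taken 24 hours after 1 intraperitoneal dose of isoproterenol (ISO), a β-adrenergic agonist, at 200 mg/kg, or after vehicle. Cells of 3 hearts were pooled per group, 15000 cells were loaded, and 1 droplet library was made per group. The library titled TTS, for Takotsubo syndrome, is called ISO here, and the other is known as the control by its title, since the treatment label gives the ISO dose for both. The comparison asked how far each gene of the pathway differed between the libraries within the same type of cell.

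MHC class II molecules are pairs of an alpha and a beta chain that display peptides from endosomes to CD4 T cells. The chains assemble on the invariant chain Cd74, whose remnant is then replaced by peptide with the help of H2-DM, an editor that H2-O restrains. Ciita is the transcriptional coactivator that these genes depend on, and dendritic cells, B cells, and many cardiac macrophages carry the molecules in the steady state.

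The control library held 5927 barcodes with 47382455 UMIs, and the ISO library held 5514 barcodes with 58495112 UMIs. After filters on genes and mitochondrial UMIs, 5641 control cells with a median of 4790 UMIs and 5437 ISO cells with a median of 8537 UMIs were kept. The libraries shared 15 barcode sequences. Cells were sorted into 10 gates by marker genes, none of them an MHC class II gene, and 4 further gates of T cells, NK cells, group 2 innate lymphoid cells, and neutrophils served as background. Barcodes with markers of more than 1 lineage, which include doublets, were left out. These were 2056 control barcodes (36.4%) and 1747 ISO barcodes (32.1%), with medians of 10815.5 and 10871 UMIs. No cell was assigned by the authors' own annotation, so the gates are rebuilt names.

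Levels are UMIs summed over the cells of a gate and scaled to all UMIs of those cells (CPM, where 10000 CPM are 1% of the UMIs). Ranges in parentheses are exact 95% intervals that cover counting error only. With 1 library per group, no difference has a replicate check and no test was made. A log2 ratio is ISO over control, so that a negative value is a lower level in the ISO library, and the phrase "core genes" stands for H2-Aa, H2-Ab1, H2-Eb1, and Cd74 summed.

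Macrophages with Timd4, Lyve1, Folr2, or Cd163 expression, called resident, numbered 333 in the control against 122 in the ISO library. Macrophages without these markers were split by Ccr2, a receptor of cells recruited from blood, into a Ccr2-negative gate (226 and 176 cells) and a Ccr2 gate (70 and 621 cells). Macrophages outside these 3 gates were not read. Classical monocytes numbered 37 and 929, nonclassical monocytes 56 and 25, type 1 dendritic cells 42 and 104, and type 2 dendritic cells 51 and 237. B cells numbered 1695 in the control against 41 in the ISO library. Mature dendritic cells (3 and 76) and plasmacytoid dendritic cells (8 and 30) had under 20 control cells, so that only their ISO levels were read.

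In all 3 macrophage gates found in both libraries, the core genes were several-fold lower after ISO. The summed level was 25840 CPM in control against 2622 CPM in ISO resident macrophages, a log2 ratio of -3.30 (-3.36 to -3.24). In Ccr2-negative macrophages it was 48374 and 8398 CPM, a log2 ratio of -2.53 (-2.55 to -2.50). In Ccr2 macrophages it was 55566 and 7423 CPM, a log2 ratio of -2.90 (-2.93 to -2.88).

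Genes with at least 20 UMIs over both libraries were counted as past a difference of 2-fold in either direction. In resident macrophages 8 members reached that minimum, and 8 were at least 2-fold lower in ISO, beside 8.93% of the 8799 genes with as many UMIs. In Ccr2-negative macrophages 9 reached it and 9 were lower, beside 16.7% of all genes, and in Ccr2 macrophages 8 reached it and 7 were lower, beside 16.2%. The members' median log2 ratios were -3.14, -2.58, and -2.81 in these gates, and the medians over all genes were 0.036, -0.070, and -0.076. H2-DMb2 in Ccr2 macrophages did not pass 2-fold, and H2-Oa had too few UMIs in each of these gates. A member with few UMIs in the ISO library reached the minimum through its control counts, so these counts describe the genes and lend no support to a direction.

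Macrophage markers were lower in the ISO library in the Ccr2-negative and Ccr2 gates, and differed far less in the resident gate. A set of 9 macrophage markers summed to 18494 CPM in control against 16382 CPM in ISO resident macrophages, and 9 of 9 had UMIs in each. In Ccr2-negative macrophages the sum was 15088 and 5213 CPM, again with 9 of 9 detected, and the complement gene C1qa stood at 4829 and 1328 CPM. In Ccr2 macrophages the sum was 11574 and 3539.9 CPM, with C1qa at 3562 and 686 CPM. In the resident gate C1qa was 6177 and 5780.1 CPM. The part of these marker shifts in the MHC class II differences was not tested in any of the 3 macrophage gates. B cell markers summed to 127 and 50 CPM in the resident gate. They summed to 147 and 25.6 CPM in Ccr2-negative macrophages and to 83.1 and 14.3 CPM in Ccr2 macrophages. The part of these B cell markers in the MHC class II differences was not tested.

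By summed UMIs, conventional dendritic cells and B cells had nearly the same core level in both libraries. Type 1 dendritic cells, which cross-present antigen to CD8 T cells, had 55720.1 CPM in the control against 50954 CPM in the ISO library, a log2 ratio of -0.13 (-0.15 to -0.11). Type 2 dendritic cells, which mainly prime CD4 T cells, had 40559 and 42205 CPM, a log2 ratio of 0.057 (0.035 to 0.080). B cells had 23287 and 22332 CPM, a log2 ratio of -0.060 (-0.11 to -0.015). Under alternative settings the B cell ratio ran from -0.55 to -0.020. The mature dendritic cells of the ISO library, marked by Ccr7 and Fscn1, had 48526 CPM, and the plasmacytoid dendritic cells, which make type I interferon, had 6116 CPM.

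All 10 members reached 20 UMIs in both conventional dendritic cell gates and in B cells. In type 1 dendritic cells 1 of 10 was at least 2-fold lower in ISO, H2-Ob, beside 7.41% of all genes. In type 2 dendritic cells H2-Oa and H2-Ob were lower, 2 of 10 beside 9.64%, and H2-DMb2 was higher, 1 of 10 beside 9.41%. In B cells Ciita and H2-Oa were lower, 2 of 10 beside 14.0%. The members' median log2 ratios were -0.15 in type 1 dendritic cells, 0.054 in type 2 dendritic cells, and -0.10 in B cells, and those of all genes were 0.062, -0.035, and -0.040. In type 2 dendritic cells the macrophage markers summed to 166 CPM in control (8 of 9 detected) against 367 CPM in ISO (9 of 9), with Csf1r highest in both, and their part in the differences of this gate was not tested. For B cells, only 41 ISO cells with 174372 UMIs stood behind the last comparison. Their macrophage markers summed to 333 CPM (8 of 9 detected, C1qb highest at 91.8 CPM), against 113 CPM in control B cells, and the part of this in the B cell levels was not tested.

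Classical monocytes carried little MHC class II RNA, and the differences in both monocyte gates rested on few cells. Classical monocytes had a core level of 1411 CPM in the control against 1641 CPM in the ISO library, a log2 ratio of 0.22 (0.085 to 0.36). The median gene in this gate had a log2 ratio of -0.23, and relative to it the core genes stood at 0.44. The sign turned negative when every cell had the same weight (-0.72) or was thinned to 1000 UMIs (-0.66, and negative in 20 of 20 random draws), so no direction is read for these 37 control cells. In nonclassical monocytes, the Treml4 and Ace cells that patrol vessels, the level was 2191 and 9215 CPM, a log2 ratio of 2.07 (1.94 to 2.21). This higher level came from 25 ISO cells, and it turned to -1.57 when barcodes with markers of more than 1 lineage were kept.

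Of the 8 members with 20 UMIs in classical monocytes, 0 were at least 2-fold lower, beside 19.5% of all genes, and 3 were higher, H2-Eb1, Ciita, and H2-DMb2, beside 13%. Ciita and H2-DMb2 had 0 control UMIs there, where 3 UMIs would be 9.14 CPM, above their ISO levels of 4.19 and 4.44 CPM, so that a difference was not detectable at this depth. With a minimum of 50 UMIs, 1 member, H2-Eb1, was counted as higher in this gate. In nonclassical monocytes 6 members reached the minimum and 6 were higher, beside 9.76%, while 0 were lower, beside 11.8%. H2-Aa, H2-Ab1, H2-Eb1, Cd74, H2-DMa, and H2-DMb1, which are these 6, were also at least 2-fold higher in ISO T cells (beside 12.8% of all genes), NK cells (8.63%), group 2 innate lymphoid cells (9.40%), and neutrophils (35.7%). Macrophage markers summed to 1164 CPM in control nonclassical monocytes (8 of 9 detected, Csf1r highest) and to 1415 CPM in ISO (9 of 9, Csf1r highest). Their part in the higher MHC class II levels was not tested.

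**Figure D1:**
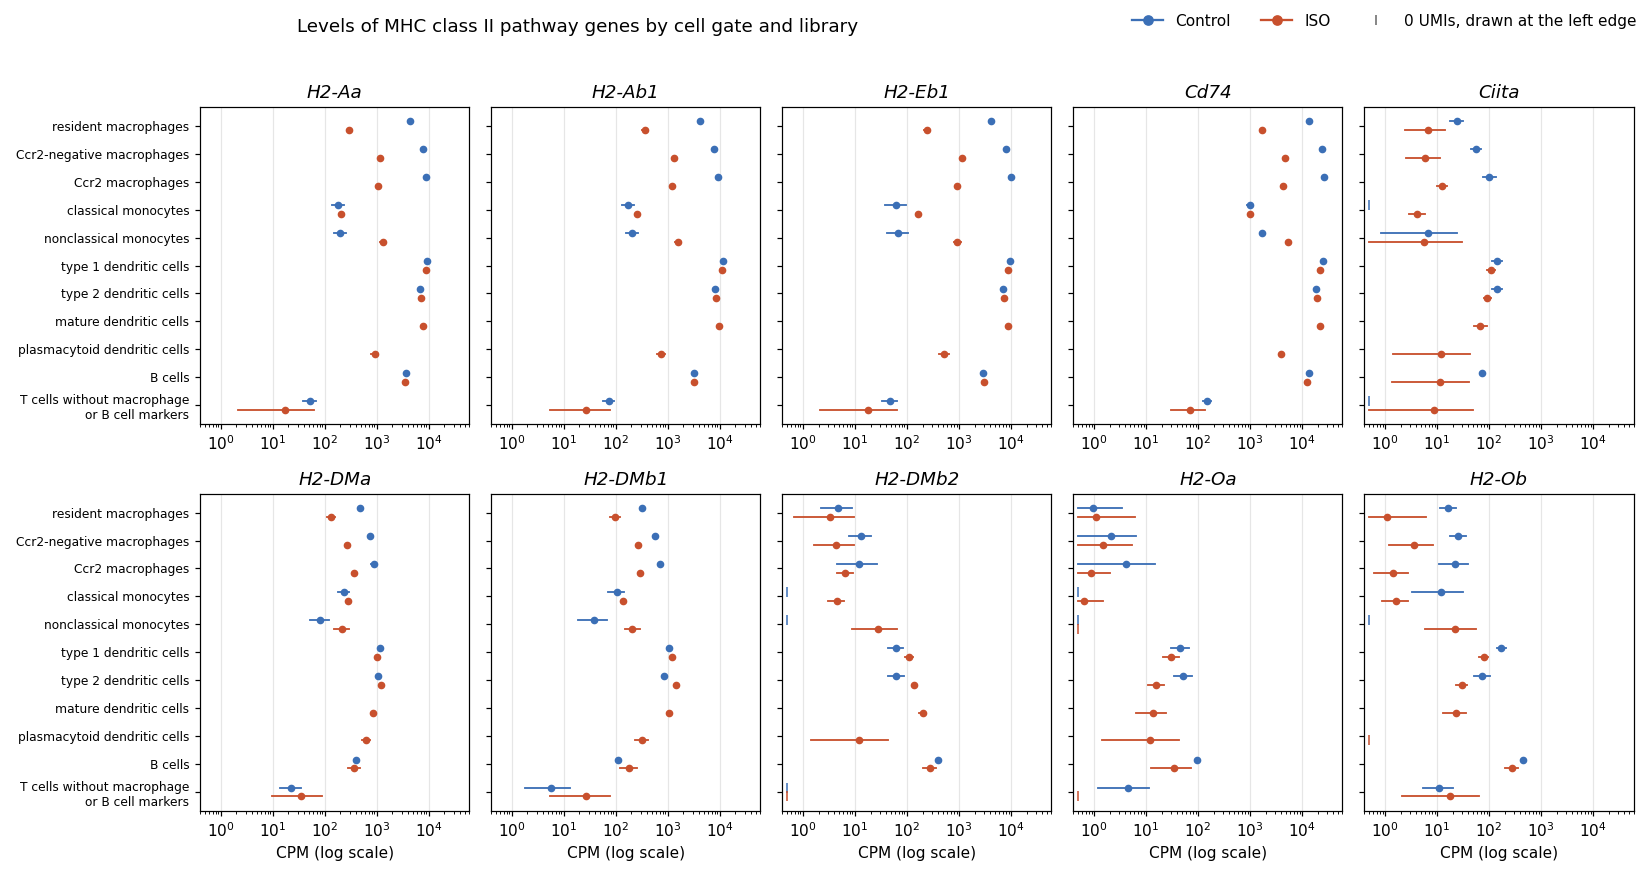
Levels of the 10 genes, in CPM on a log axis, in each gate with at least 20 cells, for the control (blue) and ISO (red) libraries; points are levels, lines are exact 95% counting intervals, and upright ticks at the left edge mark 0 UMIs. The macrophage rows are split by library for H2-Aa, H2-Ab1, H2-Eb1, and Cd74, while the dendritic cell and B cell rows nearly coincide for these genes.

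H2-Aa and H2-Ab1 encode the alpha and the beta chain of I-A, the class II molecule that C57BL6 mice display. H2-Ab1 was 4106 CPM (4020.2 to 4193) in control against 357 CPM (319 to 398) in ISO resident macrophages. In Ccr2-negative macrophages its levels were 7841 and 1312 CPM, and in Ccr2 macrophages 9384 and 1209.8 CPM. These are log2 ratios of -3.52 (-3.69 to -3.36), -2.58 (-2.65 to -2.51), and -2.96 (-3.01 to -2.90). In each macrophage gate the ISO interval lay below the control interval. Type 1 dendritic cells had 11722 and 11102 CPM, type 2 dendritic cells 8062 and 8341 CPM, and B cells 3193 and 3183 CPM. In these antigen-presenting cells no log2 ratio of H2-Ab1 was farther from 0 than -0.078.

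Over 18 pairs of gate and library, H2-Ab1 was highest in control type 1 dendritic cells and lowest in control classical monocytes (171 CPM (129 to 222)). The order ran from type 1 dendritic cells of either library to ISO mature dendritic cells (9643 CPM) and control Ccr2 macrophages, which did not differ beyond counting error. ISO and control type 2 dendritic cells and control Ccr2-negative macrophages followed, and the control type 2 dendritic cells overlapped with both of the others, which were apart. Control resident macrophages came next, then B cells of both libraries, whose intervals overlapped. Below them lay ISO nonclassical monocytes (1536 CPM), which overlapped with ISO Ccr2-negative macrophages, and then ISO Ccr2 macrophages, ISO plasmacytoid dendritic cells (735 CPM), and ISO resident macrophages, each apart from the next. ISO classical monocytes (250.2 CPM), control nonclassical monocytes (209 CPM), and control classical monocytes closed the order, where neighbors overlapped and the classical monocytes of the libraries did not. After ISO, every macrophage gate thus ranked below B cells, whereas all 3 control macrophage gates had ranked above them.

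H2-Aa followed H2-Ab1 closely. It was 4281 CPM in control against 298 CPM in ISO resident macrophages, 7663 and 1172 CPM in Ccr2-negative macrophages, and 9007 and 1052 CPM in Ccr2 macrophages. The log2 ratios were -3.85 (-4.03 to -3.67), -2.71 (-2.79 to -2.63), and -3.10 (-3.15 to -3.04). In type 1 and type 2 dendritic cells they were -0.10 (-0.14 to -0.048) and 0.059 (0.0045 to 0.11), and in B cells -0.10 (-0.22 to 0.016). Its order began with control type 1 dendritic cells (9392 CPM), control Ccr2 macrophages, and ISO type 1 dendritic cells (8790.2 CPM), whose neighbors overlapped. It ended with ISO classical, control nonclassical, and control classical monocytes at 204, 199, and 179.8 CPM, which overlapped as well.

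For each 100 UMIs of H2-Ab1 there were 104 (101 to 107) H2-Aa UMIs in control against 83.5 (70.7 to 98.5) in ISO resident macrophages. This ratio was 97.7 (95.2 to 100.4) and 89.3 (83.4 to 95.6) in Ccr2-negative macrophages and 96 (92.1 to 100.04) and 87 (84 to 90) in Ccr2 macrophages. The values were 80.1 and 79.2 in type 1 dendritic cells and 83 and 83.5 in type 2 dendritic cells. B cells had ratios of 116 and 109. The ratio of the I-A chains was thus lower in ISO resident and ISO Ccr2 macrophages, while in Ccr2-negative macrophages, dendritic cells, and B cells the intervals of both libraries overlapped.

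H2-Eb1 encodes the beta chain of I-E. Its alpha chain partner is a pseudogene in C57BL6 mice, listed as H2-Ea-ps, with 34 UMIs in the control against 4 in the ISO library, so that H2-Eb1 RNA is present without a complete I-E molecule. Among the core genes, H2-Eb1 had the most negative log2 ratio in each macrophage gate. Its level was 4088 CPM in control against 243 CPM in ISO resident macrophages, a log2 ratio of -4.07 (-4.27 to -3.88). Ccr2-negative macrophages had 8213 and 1141 CPM, a log2 ratio of -2.85 (-2.93 to -2.77). Ccr2 macrophages had 10065 and 912 CPM, a log2 ratio of -3.46 (-3.52 to -3.41). Among 18 levels of H2-Eb1, control Ccr2 macrophages ranked first and overlapped with control type 1 dendritic cells (9587 CPM).

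The rest of the order for H2-Eb1 placed ISO mature (8938 CPM) and ISO type 1 dendritic cells (8790.2 CPM) next, overlapping, then control Ccr2-negative macrophages and type 2 dendritic cells of the ISO (7359.6 CPM) and control library (6925 CPM). B cells had 2891 CPM in the control against 3097 CPM in the ISO library and did not differ beyond counting error. ISO classical monocytes (167 CPM) stood above control nonclassical (68.5 CPM) and control classical monocytes (60.9 CPM), the latter counted from 20 UMIs in 37 cells. That log2 ratio in classical monocytes, 1.45 (0.82 to 2.17), dropped to 0.16 when gate limits were lowered and turned to -2.11 when barcodes of more than 1 lineage were kept.

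The ratio of the beta chains to each other moved in macrophages and not in dendritic cells. Per 100 H2-Ab1 UMIs, H2-Eb1 had 99.6 (96.6 to 103) UMIs in control against 68.2 (57.2 to 81.3) in ISO resident macrophages, and 107 (103 to 112) and 75.4 (72.7 to 78.1) in Ccr2 macrophages. The ratios in type 1 dendritic cells were 81.8 (78.9 to 84.7) and 79.2 (77.1 to 81.3), and those in type 2 dendritic cells 85.9 (82 to 89.9) and 88.2 (86.3 to 90.2).

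Cd74, the invariant chain that escorts class II dimers to endosomes, had the least negative log2 ratio of the core genes in each macrophage gate. It was 13365 CPM (13209.6 to 13521) in control against 1724 CPM (1639 to 1812) in ISO resident macrophages, a log2 ratio of -2.95 (-3.03 to -2.88). The corresponding levels were 24657 and 4773 CPM in Ccr2-negative macrophages and 27109.5 and 4249.9 CPM in Ccr2 macrophages, with log2 ratios of -2.37 (-2.41 to -2.33) and -2.67 (-2.70 to -2.64). Cd74 was highest in control Ccr2 macrophages, followed by control type 1 dendritic cells (25019 CPM) and control Ccr2-negative macrophages, which overlapped. ISO type 1 (22272 CPM) and mature dendritic cells (22066 CPM) overlapped next, and type 2 dendritic cells had 19535 CPM in ISO and 18882 CPM in control. B cells had 13489.5 CPM in the control, where they overlapped with resident macrophages, and 12588 CPM in the ISO library. ISO resident macrophages did not differ from control nonclassical monocytes (1715 CPM), and classical monocytes were lowest with 1020.4 CPM in ISO and 999 CPM in control.

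In the control library, the balance of H2-Ab1 to Cd74 set conventional dendritic cells, macrophages, and B cells apart. Per 100 Cd74 UMIs, H2-Ab1 had 46.9 and 49.9 UMIs in type 1 dendritic cells of the control and ISO library, 42.7 and 42.7 in type 2 dendritic cells, and 43.7 in ISO mature dendritic cells. B cells had 23.7 (23.3 to 24) and 25.3 (23 to 27.8). Macrophages lay between them in the control, with 30.7 in the resident, 31.8 in the Ccr2-negative, and 34.6 in the Ccr2 gate. In the ISO library these were 20.7 (18.3 to 23.4), 27.5 (26.1 to 29), and 28.5 (27.7 to 29.2), each below the control interval of its gate. The H2-Ab1 level relative to Cd74 was therefore lower in ISO than in control macrophages. In the ISO library, the B cell interval overlapped with that of each macrophage gate.

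Ciita was lower in macrophages together with its targets. It was counted from few UMIs, so its intervals are wide. Resident macrophages had 24.1 CPM (17.9 to 31.6) from 51 UMIs in the control against 6.67 CPM (2.45 to 14.5) from 6 UMIs in the ISO library, a log2 ratio of -1.85 (-3.36 to -0.63). Ccr2-negative macrophages had 56.8 CPM (79 UMIs) and 5.86 CPM (8 UMIs), a log2 ratio of -3.28 (-4.54 to -2.23). Ccr2 macrophages had 101 CPM (50 UMIs) and 12.6 CPM (71 UMIs), a log2 ratio of -3.01 (-3.55 to -2.46). Thinned to 1000 UMIs in 20 random draws, the ratio was negative in 13 of the 14 draws with a value in resident, 14 of 14 in Ccr2-negative, and 20 of 20 in Ccr2 macrophages. Under the other alternatives the sign was negative wherever there was a value, but the size was not stable. In Ccr2-negative macrophages the log2 ratio ran from -3.96 to -1.64 over the thinning draws and was -1.02 among cells rich in C1q RNA, and in resident macrophages it was -3.48 with doubled gate limits.

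In type 2 dendritic cells and B cells, the Ciita ratio was more negative than that of its summed targets. Of Ciita, type 1 dendritic cells had 141 and 109 CPM, a log2 ratio of -0.37 (-0.78 to 0.049) that did not exceed counting error and was negative in 9 of 20 thinning draws. Type 2 dendritic cells had 143 and 93.2 CPM, a log2 ratio of -0.62 (-1.02 to -0.21), at a core level that hardly differed. That Ciita ratio was -0.20 without the deepest 10% of cells and ran from -1.63 to 0.54 over the thinning draws, with 18 of 20 negative. B cells had 73.1 CPM (66.6 to 80.1) from 465 UMIs in the control against 11.5 CPM (1.39 to 41.4) from 2 UMIs in the ISO library, a log2 ratio of -2.67 (-5.72 to -0.81). Over the alternatives the B cell ratio ran from -4.76 to -1.04. The ISO mature dendritic cells had 68.5 CPM.

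The order of Ciita levels had 3 breaks. Control and ISO type 1 dendritic cells, control and ISO type 2 dendritic cells, and control Ccr2 macrophages formed the top, with each neighbor overlapping. Control B cells, ISO mature dendritic cells, and control Ccr2-negative macrophages came next and overlapped, and control resident macrophages stood alone below them. All other levels, from ISO Ccr2 macrophages to ISO classical monocytes (4.19 CPM, 33 UMIs), overlapped with their neighbors. Control classical monocytes had 0 Ciita UMIs among 328213.

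**Figure D2:**
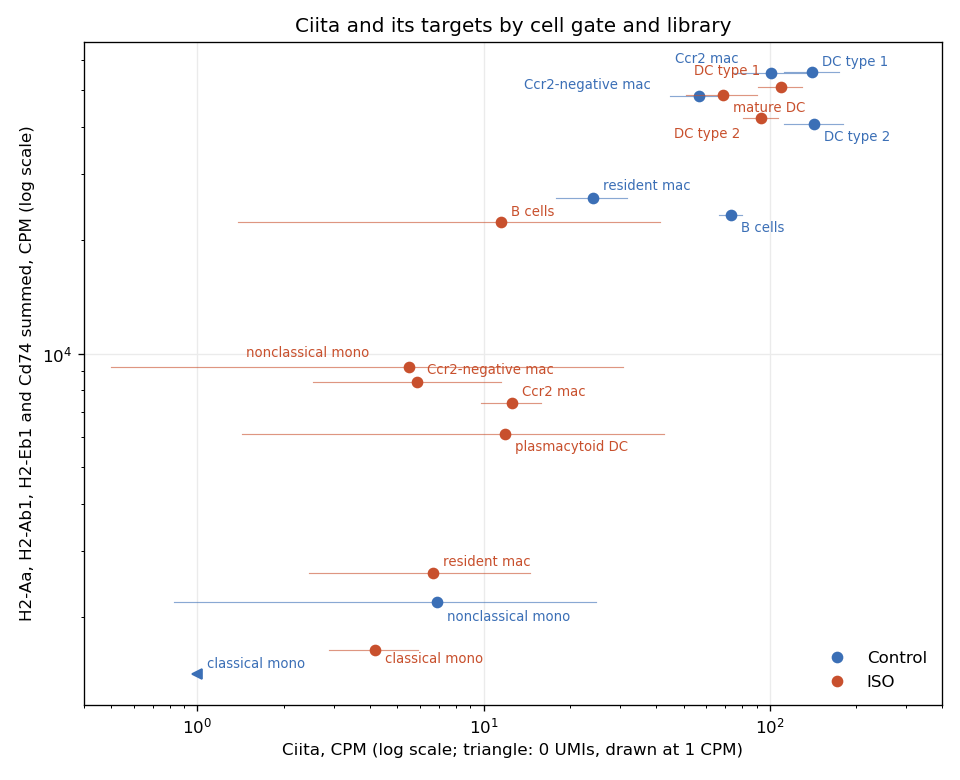
Ciita level against the summed level of H2-Aa, H2-Ab1, H2-Eb1, and Cd74, both in CPM on log axes, with 1 point per gate and library with at least 20 cells; blue is control, red is ISO, and lines are exact 95% counting intervals of Ciita. Macrophage points of the ISO library lie down and to the left of their control points, while ISO B cells lie to the left of control B cells at nearly the same height.

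Over the 18 points, log2(CPM + 1) of Ciita and of the core genes had a Pearson r of 0.91. The points share their library and its free RNA, and this is a description. Set as a ratio, the core genes had 1074 (817 to 1443) UMIs per Ciita UMI in control against 393 (180.4 to 1072) in ISO resident macrophages. The values were 852 and 1434 in Ccr2-negative macrophages and 549 (416 to 739) and 591 (468 to 756) in Ccr2 macrophages, with overlapping intervals in each of these gates. Type 2 dendritic cells had 283 (224 to 362) in the control against 453 (393 to 523) in the ISO library, whose intervals did not overlap, and type 1 dendritic cells had 395 and 466. Control B cells had 318 (291 to 349), lower than control resident macrophages. ISO B cells had 1947 (539 to 16083), above the control interval.

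H2-DMa and H2-DMb1 encode the chains of the peptide editor H2-DM, and they were lower in ISO macrophages by less than the peptide-binding chains. H2-DMa was 468 and 132 CPM in resident, 735 and 273 CPM in Ccr2-negative, and 867 and 358 CPM in Ccr2 macrophages. The log2 ratios were -1.82 (-2.11 to -1.55), -1.43 (-1.60 to -1.26), and -1.27 (-1.43 to -1.12). For H2-DMb1 the levels were 313 and 96.7 CPM, 577 and 270.2 CPM, and 707 and 286 CPM in the same gates, with log2 ratios of -1.69 (-2.03 to -1.37), -1.10 (-1.28 to -0.92), and -1.31 (-1.47 to -1.13). None of these intervals reached the ratio of Cd74 in the same gate. When barcodes of more than 1 lineage were kept, H2-DMa and H2-DMb1 in Ccr2-negative macrophages were at -0.95 and -0.72, short of 2-fold. With lowered gate limits H2-DMb1 in Ccr2 macrophages was at -0.59.

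Per 100 core UMIs, H2-DMa had 1.81 (1.70 to 1.93) UMIs in control against 5.04 (4.16 to 6.07) in ISO resident macrophages, 1.52 and 3.25 in Ccr2-negative macrophages, and 1.56 and 4.83 in Ccr2 macrophages. Type 1 dendritic cells (2.10 and 1.98), type 2 dendritic cells (2.65 and 2.83), and B cells (1.71 and 1.64) had similar ratios in both libraries. Classical monocytes carried H2-DMa with little of the core genes, at 16.4 and 17 per 100 core UMIs. The H2-DMa level of ISO classical monocytes, 279.7 CPM, did not differ from that of ISO Ccr2-negative macrophages beyond counting error.

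In the order of H2-DMa levels, type 2 and type 1 dendritic cells of both libraries came first and overlapped with their neighbors, from 1196 CPM in ISO type 2 to 1011 CPM in ISO type 1 dendritic cells. Control Ccr2 macrophages and ISO mature dendritic cells (862 CPM) overlapped next, then control Ccr2-negative macrophages and ISO plasmacytoid dendritic cells (622 CPM), then control resident macrophages alone. B cells of the libraries (398 and 367 CPM) overlapped, and those of the ISO library overlapped with ISO Ccr2 macrophages. Control nonclassical monocytes were lowest with 82.2 CPM from 24 UMIs, and overlapped with ISO resident macrophages. H2-DMb1 was highest in ISO type 2 dendritic cells, at 1434 CPM (1383 to 1486) against 844 CPM (765 to 929) in the control, a log2 ratio of 0.76 (0.62 to 0.92). ISO type 1 (1190.3 CPM), ISO mature (1069 CPM), and control type 1 dendritic cells (1052 CPM) followed and overlapped, and control nonclassical monocytes were lowest (37.7 CPM). B cells had 108 and 178 CPM of H2-DMb1, the latter from 31 UMIs. Their log2 ratio of 0.72 (0.15 to 1.23) had the same sign in 5 of 9 alternatives, and turned to -1.05 without the deepest 10% of cells and to -1.74 with the stricter limit for markers of another lineage.

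H2-DMb2 is a close paralog of H2-DMb1 that also encodes an H2-DM beta chain. Reads that match both genes could be split or dropped in the authors' counting, whose handling of such reads is not given in the sources used here, so the levels of both genes are uncertain. Between them the cell types differed by orders of magnitude. Per 100 H2-DMb1 UMIs, H2-DMb2 had 361 (332 to 394) UMIs in control B cells and 155 (96.6 to 252) in ISO B cells. Dendritic cells had 5.82 and 9.19 (type 1), 7.42 and 9.69 (type 2), and 18.9 (15.7 to 22.5) (mature, ISO). Control macrophages had 1.51, 2.24, and 1.72 in the resident, Ccr2-negative, and Ccr2 gates.

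H2-DMb2 was highest in control B cells, 391 CPM (376 to 407), followed by ISO B cells (275 CPM (203 to 365)) and ISO mature dendritic cells (202 CPM), which overlapped. In type 2 dendritic cells it was 62.6 CPM in the control against 139 CPM in the ISO library, a log2 ratio of 1.15 (0.61 to 1.73) that fell short of 2-fold, at 0.72, when barcodes of more than 1 lineage were kept. In type 1 dendritic cells it was 61.2 and 109 CPM, a log2 ratio of 0.84 (0.29 to 1.41). That ratio was 0.23 when barcodes of more than 1 lineage were kept, and H2-DMb1 in the same cells had a log2 ratio of 0.18 (0.041 to 0.32), so that neither beta chain gene passed 2-fold in type 1 dendritic cells. H2-DMa had log2 ratios of -0.21 (-0.35 to -0.077) in type 1 and 0.15 (0.019 to 0.29) in type 2 dendritic cells. In Ccr2-negative macrophages H2-DMb2 had 18 and 6 UMIs, a log2 ratio of -1.56 (-3.18 to -0.16). Only 6 of 20 thinning draws gave a value there, 3 negative and 3 positive. They ran from -1.22 to 1.36 with a median of -0.43. A draw that left a library without a UMI gave no value, so the draws cannot decide the direction. All levels below control type 1 dendritic cells, at most 27.5 CPM, overlapped with their neighbors.

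H2-Oa and H2-Ob encode the chains of H2-O, which binds H2-DM and limits peptide exchange, chiefly in B cells. H2-Ob was highest in control B cells, 448 CPM (432 to 465), and was 275 CPM (203 to 365) in ISO B cells, a log2 ratio of -0.70 (-1.15 to -0.29). H2-Oa was 95.3 CPM (87.9 to 103) and 34.4 CPM (12.6 to 74.9) in the same cells, a log2 ratio of -1.47 (-2.92 to -0.34) from 606 and 6 UMIs. The H2-Ob ratio in B cells was negative in 18 of 20 random draws of 1000 UMIs per cell.

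Dendritic cells carried less H2-Ob RNA than B cells of the same library, whereas H2-Oa in ISO B cells overlapped with ISO type 1 dendritic cells. Type 2 dendritic cells had 52.5 and 15.7 CPM of H2-Oa, a log2 ratio of -1.74 (-2.53 to -0.94), and 74.7 and 30 CPM of H2-Ob, a log2 ratio of -1.32 (-1.93 to -0.69). The H2-Ob ratio was -0.93 under the stricter limit for markers of another lineage, short of 2-fold. It was negative in 14 and positive in 5 of the 19 thinning draws with a value. Type 1 dendritic cells had 172 and 79.5 CPM of H2-Ob, a log2 ratio of -1.11 (-1.53 to -0.69). That ratio was negative in 18 of 20 thinning draws, with a median of -1.21, and was -0.96 without the deepest 10% of cells. H2-Oa in type 1 dendritic cells had a log2 ratio of -0.58 (-1.34 to 0.20), which did not exceed counting error.

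Macrophages had traces of H2-Ob in the control and less after ISO. The UMI counts were 35 and 1 in resident, 36 and 5 in Ccr2-negative, and 11 and 8 in Ccr2 macrophages, with log2 ratios of -3.89 (-9.24 to -1.32), -2.82 (-4.53 to -1.47), and -3.98 (-5.49 to -2.53). Control T cells without macrophage or B cell markers had 11.2 CPM of H2-Ob, which overlapped with control resident macrophages (16.5 CPM), so that these traces were not set apart from free RNA. H2-Oa had at most 3 control UMIs in any macrophage gate. In the order of H2-Ob levels, ISO B cells and control type 1 dendritic cells overlapped below control B cells, as did ISO type 1 and control type 2 dendritic cells below them, and every lower level overlapped with its neighbor. For H2-Oa only control B cells stood apart from the next level.

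The balance of modulator and editor differed by cell type and by library. Per 100 H2-DMa UMIs, H2-Ob had 113 (107 to 119) UMIs in control against 75 (50.5 to 111) in ISO B cells. Type 1 dendritic cells had 14.6 (11.8 to 18.1) and 7.86 (6.30 to 9.71), and type 2 dendritic cells 6.95 (4.84 to 9.71) and 2.51 (1.92 to 3.22), with no overlap between the libraries in either, whereas the B cell intervals overlapped. ISO mature dendritic cells had 2.65.

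The sums hide how the RNA was spread over cells. In control Ccr2-negative macrophages the quartiles of H2-Ab1 per 10000 UMIs were 34, 78.8, and 119, and in ISO they were 0, 1.13, and 12.4. In resident macrophages they were 1.63, 22.1, and 67.4 in the control and 0, 0.349, and 2.71 in the ISO library. Control resident macrophages therefore ranged from nearly none to levels above those of most B cells, whose quartiles were 20.7, 32.1, and 43.9. More uniform were type 1 dendritic cells, with quartiles of 106, 117, and 138 in the control and 91.2, 118, and 138 in ISO.

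Cells with at least 100 core UMIs per 10000 were counted as rich in MHC class II RNA. This limit divides a range and does not define a cell type. In resident macrophages 56.8% (51.2% to 62.1%) of control cells were rich, against 5.74% (2.34% to 11.5%) of ISO cells, or 189 of 333 and 7 of 122. The shares were 86.3% and 21.6% in Ccr2-negative macrophages and 85.7% and 25.3% in Ccr2 macrophages. Between 0.8 and 1.2 times the limit lay 14 and 6 resident, 6 and 10 Ccr2-negative, and 1 and 48 Ccr2 macrophages. In nonclassical monocytes 4 of 56 control and 8 of 25 ISO cells were rich. The shares were 97.6% and 99% in type 1 dendritic cells, 72.5% and 84.4% in type 2 dendritic cells, and 93.9% and 85.4% in B cells. At 200 core UMIs per 10000 the B cell shares were farther apart, 72.2% (69.95% to 74.3%) and 39% (24.2% to 55.5%), with 569 and 14 cells between 0.8 and 1.2 times that limit. Some ISO macrophages had MHC class II RNA above the limit of 100, while most lay below it.

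Because depth differed between the libraries, in some gates higher in the control and in others in ISO, shares of cells with a UMI were read after thinning each cell to 1000 UMIs. H2-Ab1 was found in 65.8% (60.4% to 70.9%) of control against 21.3% (14.4% to 29.6%) of ISO resident macrophages, in 89.4% and 35.8% of Ccr2-negative macrophages, and in 92.9% and 33.5% of Ccr2 macrophages. Without thinning the shares were 79.6% and 50%, 93.8% and 54.5%, and 98.6% and 55.4%. No cell of these gates had under 1000 UMIs. T cells without macrophage or B cell markers, which should lack the gene, gave 4.79% (2.09% to 9.22%) in the control against 10.3% (2.19% to 27.4%) in the ISO library after thinning, with median depths of 5120 and 3675 UMIs, and 23.4% and 10.3% before. The resident macrophages had median depths of 6371 and 6046.5 UMIs. The ISO share of resident macrophages overlapped with the ISO background share, and those of Ccr2-negative and Ccr2 macrophages lay above it. Thinned to 2000 UMIs, or not thinned, the ISO resident share also lay above it, with 37.7% (29.1% to 46.9%) against 6.90% (0.846% to 22.8%) at 2000 UMIs. In classical monocytes the thinned shares were 13.5% and 8.07%, which overlapped with the background shares.

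Ciita was rarely found in thinned cells. Its share was 15.7% in control against 1.93% in ISO Ccr2 macrophages, 7.14% and 15.4% in type 1 dendritic cells, 11.8% and 8.86% in type 2 dendritic cells, and 7.51% and 0% in B cells. Before thinning, 71.4% of control type 1 dendritic cells and 45.7% of control Ccr2 macrophages had a Ciita UMI. T cells without macrophage or B cell markers had 0 of 167 control cells and 1 of 29 ISO cells with a Ciita UMI before thinning.

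Free RNA of the core genes was read in T cells without macrophage or B cell markers, a choice that itself favors a low level. These T cells had 320.0 CPM (284 to 359) from 167 control cells and 132 CPM (73.6 to 217) from 29 ISO cells. All gated T cells had 477 and 4277 CPM, NK cells 326 and 5356 CPM, group 2 innate lymphoid cells 341 and 2065 CPM, and neutrophils 772 and 2484 CPM. The higher ISO levels in these gates stood beside macrophage markers of 517 CPM in ISO against 90.5 CPM in control T cells, with 8 of 9 detected and Fcgr1 highest. In NK cells these markers summed to 246 CPM in ISO against 93.9 CPM in control. Group 2 innate lymphoid cells had 341 CPM in ISO against 96.4 CPM in control, and neutrophils 812 against 398 CPM. The part of these markers in the core levels was not tested. In T cells without such markers the macrophage sum was 62.4 and 52.6 CPM. The core level of classical monocytes in either library lay between those of control and ISO neutrophils. The core levels of all gated ISO T cells and of ISO NK cells lay above that of ISO resident macrophages (2622 CPM).

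Of the 10 genes, 8 lie within 224 kb of the MHC region on chromosome 17 of GRCm38. From low to high position in the GENCODE annotation these are H2-Oa (chr17:34092340-34095234), H2-DMa (chr17:34119541-34139101), H2-DMb2 (chr17:34143307-34151555), H2-DMb1 (chr17:34153072-34160230), H2-Ob (chr17:34238903-34254414), H2-Ab1 (chr17:34257689-34269419), H2-Aa (chr17:34282744-34287823), and H2-Eb1 (chr17:34305867-34316674). H2-Aa is on the minus strand and the other 7 are on the plus strand. Ciita lies at chr16:10480059-10528418 and Cd74 at chr18:60803848-60812652, both on the plus strand. Some neighbors in this cluster shared their differences and others did not. H2-Ab1, H2-Aa, and H2-Eb1, next to each other in this order, were lower together in the macrophage gates. H2-Ob, next to H2-Ab1, had a log2 ratio of -1.32 in type 2 dendritic cells where H2-Ab1 had 0.049.

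By pattern over 26 pairs of gate and library, background gates included, the genes most like H2-Ab1 among 9426 genes were H2-Aa (Pearson r = 0.996), H2-Eb1 (0.991), Cd74 (0.983), Ciita (0.933), and H2-DMb1 (0.916), on log2(CPM + 1). The genes most like Ciita were H2-Ab1 (0.933), H2-Aa (0.927), Cd74 (0.924), H2-Eb1 (0.922), and H2-DMb1 (0.842). H2-DMa ranked 6 for H2-Ab1 (r = 0.817) and H2-DMb2 ranked 19 (r = 0.742). H2-Ob (r = 0.638) and H2-Oa (r = 0.501) were far less alike, at ranks 69 and 290. All points come from 2 libraries.

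Promoters of these genes are known for an X box and a Y box at a fixed spacing, bound by RFX and NF-Y factors that recruit Ciita. RefSeq promoters on GRCm38.p6 were found for 7 of the 10 genes, and H2-Ab1, Cd74, and Ciita were not among them. The bases before the start were searched on both strands for GCAAC, letters within the X box, and ATTGG, the Y box core. GCAAC was in 29.9% of all 32851 promoters and ATTGG in 33.8%, and the members with a promoter held them in 5 and 7 of 7 genes. GCAAC followed after 12 to 30 bases by ATTGG was in 261 promoters (0.794%), among them those of H2-Aa, H2-Eb1, H2-Oa, and H2-Ob. The promoters found for H2-DMa, H2-DMb1, and H2-DMb2 did not hold this pair. The spacing was chosen after the sequences were seen, and a match is a description of letters. The stretches from base 100 to base 31 before the start of these 4 genes are printed because they hold this pair, with GCAAC and ATTGG in capitals. They cover chr17:34287854-34287923 for H2-Aa on the minus strand, chr17:34305767-34305836 for H2-Eb1, chr17:34092279-34092348 for H2-Oa, and chr17:34238805-34238874 for H2-Ob on the plus strand.
H2-Aa: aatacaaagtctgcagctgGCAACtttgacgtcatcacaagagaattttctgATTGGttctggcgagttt
H2-Eb1: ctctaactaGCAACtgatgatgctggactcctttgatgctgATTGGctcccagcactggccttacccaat
H2-Oa: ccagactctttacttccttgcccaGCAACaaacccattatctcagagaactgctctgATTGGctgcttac
H2-Ob: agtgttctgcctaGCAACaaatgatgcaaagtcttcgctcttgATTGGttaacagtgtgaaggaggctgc

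Between the pairs of letters lay 28 bases in H2-Aa, 27 in H2-Eb1, 28 in H2-Oa, and 25 in H2-Ob. H2-Aa and H2-Oa, with the same spacing, had log2 ratios of 0.059 and -1.74 in type 2 dendritic cells. The part of the letters or their spacing in these ratios was not tested.

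Few of the factors that hold Ciita at these promoters passed 2-fold outside B cells. Of 7 enhanceosome genes (Rfx5, Rfxap, Rfxank, Nfya, Nfyb, Nfyc, Creb1), 6 reached 20 UMIs in resident macrophages and 0 of them passed 2-fold, beside 8.93% of all genes lower and 9.24% higher, with a median log2 ratio of 0.089 beside 0.036 for all genes. In Ccr2-negative macrophages 1 of 6 was lower, beside 16.7%, and 1 higher, beside 12.1%, with a median of 0.37 beside -0.070. In Ccr2 macrophages, classical monocytes, and both conventional dendritic cell gates 0 of 6 passed, as did 0 of 2 in nonclassical monocytes. In B cells 4 of 7 were at least 2-fold lower, beside 14.0%, with a median of -1.03, and 2 of these, Rfx5 and Rfxank, had 0 ISO UMIs, where 3 UMIs would be 17.2 CPM. That floor is above the control level of Rfx5 (9.60 CPM), whose difference was thus not detectable, and less than 2-fold below that of Rfxank (27.7 CPM). Creb1, which binds next to the X box, had log2 ratios of -0.19 (-0.67 to 0.27), -0.88 (-1.32 to -0.44), and -0.24 (-0.75 to 0.32) in the resident, Ccr2-negative, and Ccr2 macrophages. Nfya, an NF-Y subunit, had -0.75 (-1.37 to -0.17), -1.09 (-1.63 to -0.58), and -0.88 (-1.40 to -0.31), and -1.16 (-2.79 to 0.072) in B cells, so that the intervals in the macrophage gates lay below 0. Rfxank, an RFX subunit, was lower by 2-fold in 1 gate and higher in 1.

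Interferon-γ signaling is the classic inducer of Ciita in macrophages. Among 7 genes of this input (Ifngr1, Ifngr2, Jak1, Jak2, Irf1, Irf8, Socs1), 0 of 6 with 20 UMIs passed 2-fold in resident and 0 of 7 in Ccr2-negative macrophages, where the medians were -0.21 and -0.40. In Ccr2 macrophages 1 of 7 was lower, a share below the 16.2% of all genes (median -0.40), and in classical monocytes 2 of 7, beside 19.5% (median -0.83). In type 2 dendritic cells 2 of 6 were lower, beside 9.64% (median -0.026), in type 1 dendritic cells 1 of 6, beside 7.41%, and in nonclassical monocytes and B cells 0. Irf1, a transcription factor of the Ciita promoter, was lower by 2-fold in 4 gates. These were Ccr2 macrophages, classical monocytes, and type 1 and type 2 dendritic cells. It was 237 and 99.3 CPM in Ccr2 macrophages, a log2 ratio of -1.25 (-1.54 to -0.95), and 256 and 105 CPM in classical monocytes, a log2 ratio of -1.28 (-1.60 to -0.94). In resident macrophages its log2 ratio was -0.96 (-1.27 to -0.66), short of 2-fold. Irf8, which type 1 dendritic cells need to develop, had a log2 ratio of -1.56 (-1.84 to -1.28) in type 2 and -0.34 (-0.44 to -0.23) in type 1 dendritic cells.

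Endosomal enzymes that process antigen or Cd74 had positive median log2 ratios in each of 8 gates, though not every gene passed 2-fold. Of 6 genes (Ctss, Ctsl, Ctsb, Ctsd, Lgmn, Ifi30), 0 were 2-fold lower in any of 8 gates. Higher were 1 in resident (beside 9.24% of all genes), 3 in Ccr2-negative (12.1%), and 3 in Ccr2 macrophages (13.5%). Of the same 6 genes, 3 were higher in classical monocytes (13%), 2 in nonclassical monocytes (9.76%), 5 in type 1 dendritic cells (9.43%), 2 in type 2 dendritic cells (9.41%), and 4 in B cells (13%). Macrophage markers were lower in ISO in the macrophage gates and higher in the other gates. They summed to 113 and 333 CPM in B cells and to 166 and 367 CPM in type 2 dendritic cells. Their part in these counts was not tested. The list medians were 0.47, 1.17, and 0.82 in the macrophage gates, 1.35 and 0.86 in classical and nonclassical monocytes, 1.94 and 0.69 in type 1 and type 2 dendritic cells, and 1.66 in B cells. Ctsl, encoding cathepsin L, was higher by 2-fold in 8 of 8 gates, with 217 and 999 CPM in resident macrophages, a log2 ratio of 2.20 (2.04 to 2.37), and 2.72 (2.39 to 3.07) in Ccr2 macrophages. Ctss, encoding cathepsin S, which trims Cd74 in most antigen-presenting cells, had log2 ratios of -0.10 (-0.21 to 0.012) in resident macrophages and 1.11 (0.88 to 1.34) in type 1 dendritic cells. The macrophage level of Ctss, 1107 and 1034 CPM in the resident gate, thus hardly differed while Cd74, its substrate, was lower.

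MHC class I genes that passed 2-fold were lower in ISO, and none passed in dendritic cells or B cells. Of 9 genes (H2-K1, H2-D1, B2m, Tap1, Tap2, Tapbp, Nlrc5, Psmb8, Psmb9), 1 was 2-fold lower in resident macrophages, near the share of all genes (8.93%), 3 in Ccr2-negative (16.7%), and 6 in Ccr2 macrophages (16.2%). In classical monocytes 4 of 9 were lower (19.5%) and in nonclassical monocytes 4 of 8 (11.8%), with 0 higher in each of these gates. The medians were -0.69, -0.91, -1.11, -0.94, and -0.93, beside 0.036, -0.070, -0.076, -0.23, and -0.052 for all genes. In type 1 and type 2 dendritic cells and B cells 0 of 9 passed. Of all genes in these gates, 7.41%, 9.64%, and 14.0% were lower and 9.43%, 9.41%, and 13% were higher. The list medians were -0.36, -0.14, and -0.15, beside 0.062, -0.035, and -0.040 for all genes. H2-D1, a class I heavy chain, had log2 ratios of -0.37 (-0.45 to -0.29) in resident and -0.64 (-0.72 to -0.55) in Ccr2 macrophages. Tapbp, the tapasin that loads peptide on class I, had -1.06 (-1.40 to -0.74) and -1.41 (-1.69 to -1.13).

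Of 4 genes of surface turnover (March1, March8, Cd83, Tmem127), 1 was 2-fold lower in resident (beside 8.93% of all genes), 2 in Ccr2-negative (16.7%), and 1 in Ccr2 macrophages (16.2%), 2 of 3 in nonclassical monocytes (11.8%), and 1 of 3 in type 1 dendritic cells (7.41%). Higher were 1 of 4 in classical monocytes (13%) and 1 of 3 in B cells (13%), and 0 of 3 passed in type 2 dendritic cells. The gene in classical monocytes, March8, had 0 control UMIs, and its ISO level of 10.7 CPM lay less than 2-fold above a floor of 3 UMIs (9.14 CPM). Medians were -0.67, -1.14, and -0.77 in the macrophage gates. Cd83, which shields surface class II from the ubiquitin ligase March1, was 1696 and 713 CPM in resident macrophages, a log2 ratio of -1.25 (-1.37 to -1.13), with -1.44 (-1.53 to -1.34) and -1.40 (-1.5 to -1.30) in the Ccr2-negative and Ccr2 gates.

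Costimulatory genes went both ways. Of 6 genes (Cd80, Cd86, Cd40, Icosl, Cd274, Pdcd1lg2), 2 of 5 with 20 UMIs were 2-fold lower in resident macrophages (beside 8.93% of all genes) and 0 higher (9.24%). In Ccr2-negative macrophages 2 of 5 were lower (16.7%) and 2 higher (12.1%), in Ccr2 macrophages 2 of 6 lower (16.2%) and 2 higher (13.5%), and in classical monocytes 1 of 6 lower (19.5%) and 2 higher (13%). In nonclassical monocytes 1 of 2 was lower (11.8%), in type 1 dendritic cells 0 of 5 passed, in type 2 dendritic cells 3 of 5 were higher (9.41%), and in B cells 1 of 6 was higher (13%), near the share of all genes. Of the higher genes in Ccr2 macrophages and classical monocytes, Pdcd1lg2 had 0 control UMIs, and its ISO levels of 6.20 and 3.68 CPM did not pass 2-fold against floors of 3 UMIs, 6.08 and 9.14 CPM. Cd80, a ligand of CD28, was 12.9 and 55.7 CPM in Ccr2-negative macrophages, a log2 ratio of 2.10 (1.35 to 2.93), and 1.69 (0.88 to 2.63) in type 2 dendritic cells. Cd86, its companion ligand, had -0.29 (-0.47 to -0.11) and 1.04 (0.67 to 1.42) in the same gates. Type 2 dendritic cells of the ISO library thus had more Cd80 and Cd86 RNA at a core level that hardly moved, while Ccr2-negative macrophages had more Cd80 RNA and less of the core genes. Of the other genes of the class II region, H2-Eb2 reached 20 UMIs in B cells alone, with 47.3 and 28.7 CPM, a log2 ratio of -0.72 (-2.36 to 0.52).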

How the data were processed

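CD45+ cells from hearts 24 hours after ISO (200 mg/kg) or vehicle were measured in 1 library per group, each from 3 pooled hearts. The deposited values are UMI counts per gene and cell, and integer count tables were made by the authors with bcl2fastq 2.19.1.403, UMI-tools 1.0.0, STAR 2.7.3a, and Subread featureCounts 1.6.4 on mm10, per the submitters' processing notes. Barcodes were dropped at 500 genes or below, at 6000 genes or above, or when mitochondrial transcripts made up 25% or more. This left 5641 control cells (median 4790 UMIs) and 5437 ISO cells (median 8537 UMIs).

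Each cell was scored by marker panels, as the mean of ln(1 + UMIs per 10000) over the panel genes, divided by the median of the 100 highest cells. The plan had named the share of a cell's UMIs in each panel, and this score took its place. Gates needed 0.4 of the reference (0.2 for macrophages, 0.5 for classical monocytes), and cells above 0.2 or 0.3 in a panel of another lineage were set aside. These limits were revised 1 time, on marker evidence, after levels of the 10 genes by gate had been seen, and the first limits (0.2 for every panel) were kept as an alternative. The 10 genes and the gene lists were chosen with earlier results of these data known.

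UMIs were summed per gate and given as CPM with exact Poisson intervals, shares with Clopper-Pearson intervals, and log2 ratios with exact conditional intervals, all at 95%. No test was made, because no group had replicate libraries. Genes needed 20 UMIs over both libraries in a gate, and gates 20 cells in a library. A 0 was compared with a floor of 3 UMIs. List medians used 0.5 added UMIs. All 10 genes are named, and of each list its most abundant gene and the gene past 2-fold in most gates. The lists were Ciita enhanceosome, interferon input, endosomal processing, surface turnover, costimulation, MHC class I, and other class II region genes, of which H2-Pb was not in the tables. Likeness used genes with at least 200 UMIs. Positions come from GENCODE and promoters from RefSeq on GRCm38.p6. Alternatives covered cell filters, gate limits, barcodes of 2 lineages, cell weight, scaling, thinning (1 draw, later repeated as 20 draws for the log2 ratios), free RNA, deep cells, and UMI minimums. The ratio code was tested on simulated data. Python 3.11.15, numpy 2.4.6, scipy 1.17.1, pandas 2.3.3, and matplotlib 3.10.9 were used.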

Additional observations from a re-analysis of the deposited data

Results flagged for a closer look

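H2-Aa, H2-Ab1, H2-Eb1, Cd74, H2-DMa, and H2-DMb1 were lower after ISO in resident macrophages and higher in nonclassical monocytes, which is why they are listed here. The log2 ratio in nonclassical monocytes minus that in resident macrophages was 6.57 for H2-Aa, 6.40 for H2-Ab1, 7.83 for H2-Eb1, 4.62 for Cd74, 3.21 for H2-DMa, and 4.17 for H2-DMb1. These differences were not tested, since each group had 1 library, and the monocyte values rest on 25 ISO cells. With barcodes of 2 lineages kept, the log2 ratios in nonclassical monocytes were negative for all 6 genes, at -1.61, -1.41, -2.02, -1.49, -0.47, and -0.53 in the order above, so the opposite direction was lost.

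By summed UMIs, H2-DMb2 was lower after ISO in Ccr2-negative macrophages (18 and 6 UMIs) and higher in type 2 dendritic cells. The log2 ratio in type 2 dendritic cells minus that in Ccr2-negative macrophages was 2.71, and this difference was not tested. With those barcodes kept, the ratio in type 2 dendritic cells was 0.72, short of 2-fold. In Ccr2-negative macrophages only 6 of 20 thinning draws gave a value, 3 negative and 3 positive, with a median of -0.43. A draw that left a library without a UMI gave no value, so the draws cannot decide whether the lower level in that gate holds. In type 2 dendritic cells 19 of 20 draws were positive and 1 was negative.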

How the results depend on the processing

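Over all kinds of results there were 14 alternative settings chosen at the start and 3 chosen after seeing the data, which were the limit of 0.2 for markers of another lineage, the C1q minimum, and 20 random draws of the thinning in place of 1. Each log2 ratio had 8 to 11 of them, without the repeated draws. Of 37 log2 ratios of single genes past 2-fold, 361 alternative values were obtained, of which 353 had the same sign and 340 were still past 2-fold. The number of members past 2-fold was also taken with at least 50 UMIs, at least 1 UMI, or median ratio scaling. Where it was above 0 it stayed within 1.5 times of its value, except in classical monocytes, where 1 in place of 3 was higher with at least 50 UMIs. Counts of 0 were not followed. Of 16 core levels under the stricter cell filter, 10 left their counting interval, as did 18 of 32 values for the shares of cells with H2-Ab1 under other thinning.

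By setting, there follow the values outside the counting interval for the core genes (H2-Aa, H2-Ab1, H2-Eb1, and Cd74 summed) and for Ciita in macrophages, and the values with another sign for ratios past 2-fold. Other single genes left their intervals too and are counted above only where past 2-fold. With gate limits at 0.5 times their value, the core log2 ratio was -3.37 in resident macrophages, -2.22 in Ccr2-negative macrophages, -2.08 in Ccr2 macrophages, -0.22 in classical monocytes, -0.25 in type 1 dendritic cells, 0.10 in type 2 dendritic cells and -0.31 in B cells. With gate limits doubled, the core log2 ratio was -3.19 in resident macrophages, -2.68 in Ccr2-negative macrophages, -3.07 in Ccr2 macrophages and -0.055 in type 1 dendritic cells. The same setting gave Ciita -3.48 in resident macrophages. With barcodes of 2 lineages kept, the core log2 ratio was -2.79 in resident macrophages, -2.25 in Ccr2-negative macrophages, -2.62 in Ccr2 macrophages, -1.85 in classical monocytes, -1.57 in nonclassical monocytes, -0.28 in type 1 dendritic cells, -0.070 in type 2 dendritic cells and -0.55 in B cells. The same setting gave H2-Eb1 -2.11 in classical monocytes, and H2-Aa -1.61, H2-Ab1 -1.41, H2-Eb1 -2.02, Cd74 -1.49, H2-DMa -0.47, H2-DMb1 -0.53 in nonclassical monocytes. With each cell given the same weight, the core log2 ratio was -3.36 in resident macrophages, -0.72 in classical monocytes, 1.76 in nonclassical monocytes, -0.054 in type 1 dendritic cells, 0.092 in type 2 dendritic cells and -0.25 in B cells. Without the cells in the top 10% of UMIs, the core log2 ratio was -3.43 in resident macrophages, -2.63 in Ccr2-negative macrophages, -2.94 in Ccr2 macrophages, -0.62 in classical monocytes, 1.86 in nonclassical monocytes, -0.10 in type 1 dendritic cells, 0.31 in type 2 dendritic cells and -0.32 in B cells. Among macrophages with at least 100 C1q UMIs per 10000, the core log2 ratio was -3.19 in resident macrophages and -2.25 in Ccr2-negative macrophages. The same setting gave Ciita -1.02 in Ccr2-negative macrophages. With at least 1000 genes and under 10% mitochondrial UMIs per cell, the core log2 ratio was -2.49 in Ccr2-negative macrophages, -2.97 in Ccr2 macrophages, 1.87 in nonclassical monocytes, 0.10 in type 2 dendritic cells and -0.36 in B cells. Scaled by the median ratio of genes, the core log2 ratio was -2.46 in Ccr2-negative macrophages, -2.83 in Ccr2 macrophages, 0.44 in classical monocytes, -0.19 in type 1 dendritic cells and 0.092 in type 2 dendritic cells. With each cell thinned to 1000 UMIs, the core log2 ratio was -2.57 in Ccr2-negative macrophages, -0.66 in classical monocytes, 1.85 in nonclassical monocytes, -0.041 in type 1 dendritic cells, 0.11 in type 2 dendritic cells and -0.34 in B cells. The same setting gave Ciita -1.86 in Ccr2-negative macrophages, and H2-Ob 0.43 in type 1 dendritic cells. With a limit of 0.2 for markers of another lineage in every panel, the core log2 ratio was -2.79 in Ccr2-negative macrophages, -2.99 in Ccr2 macrophages, -0.13 in classical monocytes, -0.11 in type 1 dendritic cells, 0.089 in type 2 dendritic cells and -0.25 in B cells. With the T cell level subtracted, the core log2 ratio was 0.47 in classical monocytes and 2.28 in nonclassical monocytes. The same setting gave Ciita -4.74 in Ccr2 macrophages. The cause of these differences was not tested.

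The negative core ratios of the macrophage gates held in sign under each setting that gave a value. Those of monocytes did not, and kept barcodes of 2 lineages turned both monocyte gates to negative values. Doubled gate limits left too few cells for a value in monocytes, type 2 dendritic cells, and B cells, and the limit of 0.2 left too few nonclassical monocytes. Subtraction gave no value for Ciita where the T cell level was as high. The C1q minimum was applied to resident and Ccr2-negative macrophages only. The thinned values above come from 1 draw, which gave no value for Ciita in resident macrophages. In that draw the Ciita value of Ccr2-negative macrophages rested on 14 control and 3 ISO UMIs, and the H2-Ob value of type 1 dendritic cells on 3 and 10. Over 20 draws the former ran from -3.96 to -1.64 with 6 draws at 0 UMIs in a library, and the latter from -2.12 to 0.43 with 18 of 20 negative. Ciita in resident macrophages had 14 draws with a value, 13 of them negative. The core ratio was negative in 20 of 20 draws in each macrophage gate. Depth limits Ciita, H2-Oa, and H2-Ob, and few cells limit control monocytes, ISO nonclassical monocytes, and ISO B cells. With 1 library per group, no replicate was left out.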
